A study of Mus musculus with 6 samples.

Results

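The Nodal and activin signalling genes examined here were 9 genes chosen by their place in the pathway: Nodal, Tdgf1, Lefty1, Lefty2, Acvr1b, Acvr2b, Smad2, Smad3 and Foxh1. Their RNA was measured in whole male gonads of E14.5 mouse embryos on 1-colour Agilent arrays. A probe was matched to 8 of the 9 genes by RefSeq accession, 1 probe each except for Smad3 with 2, which made 9 of the 41174 probes on the array. RefSeq accessions paired 23374 of the array's probes with a gene, and Nodal was not among these genes. Whether one of the unpaired probes measures Nodal was not determined, and Nodal was not analysed here.

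The study asked whether a NANOS2 protein without its first 10 amino acids can stand in for the intact protein, an RNA-binding protein of male germ cells. The 6 arrays came from 3 genotypes on a mixed ICR and N2 background, 2 biological replicates each. Nanos2+/- gonads carried 1 null allele and served as the control, Nanos2-/- gonads had no intact allele, and Nanos2-/-_Tg+ gonads were Nanos2-/- with a 3×FLAG-tagged Nanos2-ΔN10 transgene driven by the Nanos2 enhancer. All 3 genotypes thus had at least 1 null allele, no Nanos2+/+ gonad was among them, and no gonad without the null allele carried the transgene. The sources used here do not give how many embryos made up a sample.

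Nodal is a secreted ligand of the TGF-beta superfamily. It signals through a type I receptor, ACVR1B, and a type II receptor, ACVR2A or ACVR2B, with CRIPTO (encoded by Tdgf1) as a membrane-anchored co-receptor, whereas activins use the same receptors without CRIPTO. The receptors phosphorylate SMAD2 and SMAD3, which enter the nucleus with SMAD4 and act there with partners such as FOXH1. LEFTY1 and LEFTY2 are secreted antagonists of Nodal and are themselves induced by the pathway. In the fetal mouse testis, Nodal and CRIPTO are known from male germ cells around the time of sex determination, and activin A made by fetal Leydig cells is known to act on Sertoli cells.

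The Nanos2 probe checked the genotype labels. Its log2 signal was 9.42 and 10.78 in Nanos2+/-, at the floor of 2.32 on both Nanos2-/- arrays and 13.28 and 14.25 in Nanos2-/-_Tg+. Between 64.1 and 66.7% of probes were well above background on each array and 0 spots were saturated. Both Nanos2+/- arrays were on 1 slide and the other 4 arrays on a second slide, so slide and genotype cannot be told apart in any comparison with Nanos2+/-. The comparison of Nanos2-/-_Tg+ with Nanos2-/- lay within 1 slide. All 8 germ cell markers tested and all 10 Sertoli cell markers were well above background on every array. Of the mesonephros markers, 4 to 7 of the 7 tested were.

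None of the 8 measured genes passed the test between any 2 genotypes. Lefty1 had the largest differences, 2.56-fold higher in Nanos2-/- and 2.45-fold higher in Nanos2-/-_Tg+ than in Nanos2+/-, but these rested on 1 Nanos2+/- array. The signal transducers Smad2 and Smad3, the receptor gene Acvr2b, the nuclear partner Foxh1 and the second antagonist Lefty2 stood well above background on all 6 arrays, and their mean signals differed between genotypes by at most 0.39 on the log2 scale for their leading probes. Tdgf1 was dim, and Acvr1b was at the edge of detection.

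Values below are log2 signals after each array was scaled to a common median, and only the same probe is compared between arrays. A probe was called changed at a limma adjusted p under 0.05 (Benjamini-Hochberg over all tested probes) with at least a 2-fold difference. By this rule 0 of the 9 probes were called in Nanos2-/- against Nanos2+/-, where 0.0674% of all tested probes were called. The count was 0 of 9 in Nanos2-/-_Tg+ against Nanos2+/-, beside 0.105% of all probes, and 0 of 9 in Nanos2-/-_Tg+ against Nanos2-/-, beside 0.0187%. Before adjustment, limma gave 0 of the 9 probes a p under 0.05 in each comparison, and the methods' t-test with a 2-fold threshold also selected 0 of 9. Of all 26711 tested probes, 591, 745 and 174 had a limma p under 0.05 with at least a 2-fold difference, in the same order. The t-test's counts over all probes are given in the last section. With so few probes, these counts of 0 are not read as a result about the members. Adjusted p-values of the 9 probes ran from 0.718 to 0.998 in the first comparison and from 0.614 to 0.964 in the second, and all were 1 in the third. In whole gonads, fewer cells of a type and less RNA per cell cannot be told apart.

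**Figure D1:**
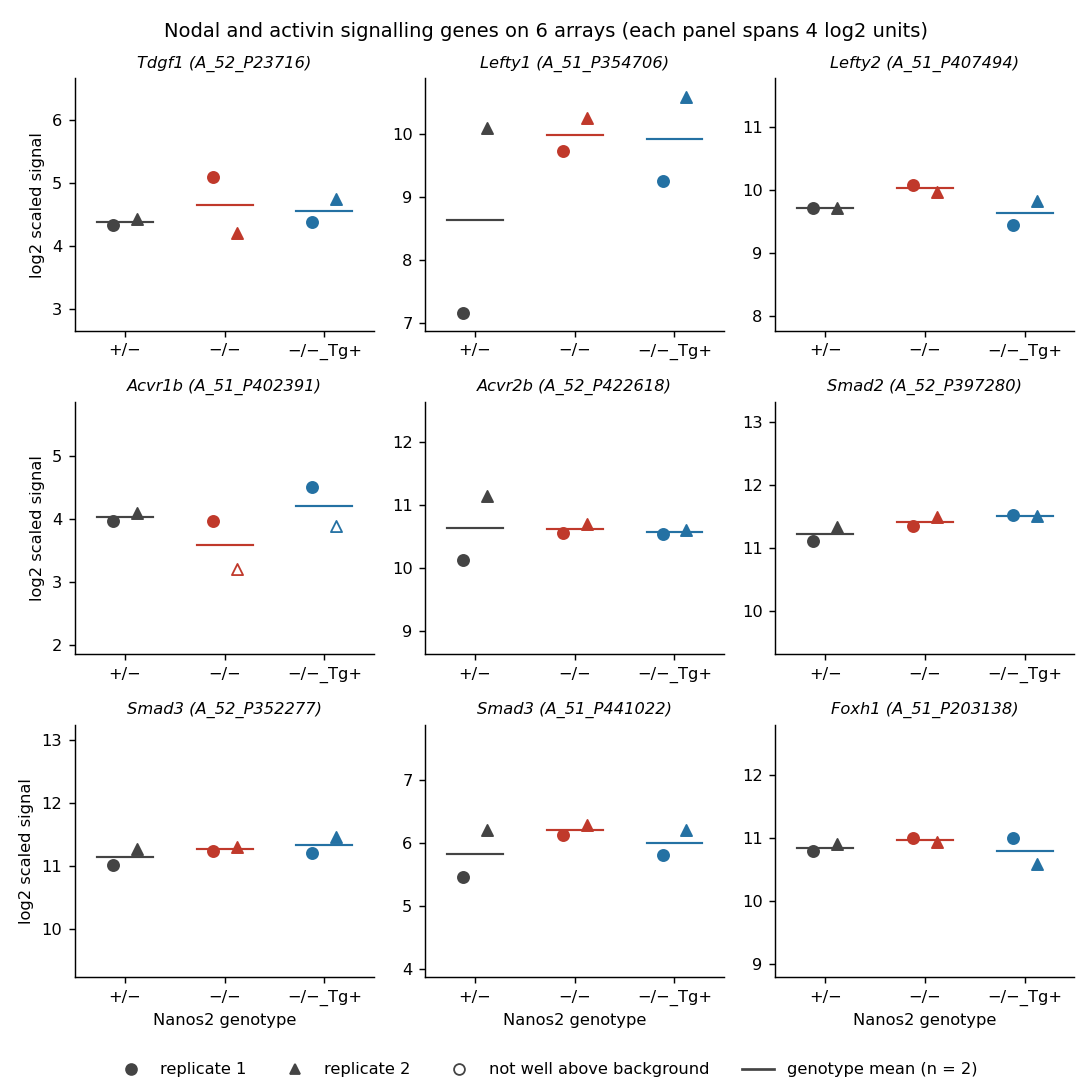
Log2 scaled signal of the 9 probes of Nodal and activin signalling genes (y axis, each panel spanning 4 log2 units) for the 3 Nanos2 genotypes (x axis), with circles for replicate 1, triangles for replicate 2, open symbols for signals not well above background and lines for the mean of the 2 arrays. Lefty1 ranges from 7.17 to 10.59 while Lefty2, Smad2, Foxh1 and the brighter Smad3 probe lie almost flat.

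Tdgf1, the co-receptor gene, was dim but well above background on all 6 arrays. Its log2 signals were 4.33 and 4.42 in Nanos2+/-, 5.10 and 4.21 in Nanos2-/-, and 4.37 and 4.73 in Nanos2-/-_Tg+. The highest and the lowest of the 6 values were the 2 Nanos2-/- replicates, so that the spread within this genotype covered the other 4 arrays. The mean difference from Nanos2+/- was 0.28 (SE 0.30, limma adjusted p = 0.847) in Nanos2-/- and 0.18 (adjusted p = 0.882) in Nanos2-/-_Tg+. The lowest signals counted as well above background were 3.47 to 3.84 on these arrays, close below the Tdgf1 values.

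Lefty1, which encodes a secreted Nodal antagonist, varied more than any other of the measured members. Its log2 signals were 7.17 and 10.10 in Nanos2+/-, 9.72 and 10.25 in Nanos2-/-, and 9.26 and 10.59 in Nanos2-/-_Tg+. Thus 5 arrays lay between 9.26 and 10.59 and replicate 1 of Nanos2+/- lay far under them, with a scaled signal of 144 against 612 to 1543 on the others. The groups overlapped in all 3 comparisons. Nanos2-/- exceeded Nanos2+/- by 1.35 (SE 0.86, 95% CI -0.64 to 3.35, limma adjusted p = 0.718) and Nanos2-/-_Tg+ exceeded it by 1.29 (95% CI -0.71 to 3.29, adjusted p = 0.633). Between Nanos2-/-_Tg+ and Nanos2-/- the difference was -0.06 (95% CI -2.06 to 1.94, adjusted p = 1), an interval that leaves room for a change of 2-fold or more in either direction.

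The Lefty1 difference depended on which Nanos2+/- array was used. Without replicate 1 of Nanos2+/- it was -0.11 for Nanos2-/- and -0.17 for Nanos2-/-_Tg+, beside medians over all tested probes of -0.16 and -0.12. Without replicate 2 of Nanos2+/- it was 2.82 and 2.76, beside medians of 0.075 and 0.10. In these fits the lone Nanos2+/- array was assumed to vary like the other genotypes. The scaling, background and filter settings left the difference above 1 in both comparisons. Among these settings, normexp background correction also moved the median over all tested probes, to 0.56 and 0.52. This setting started from the median spot and background signals with an offset of 50, not from the processed signal.

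**Figure D2:**
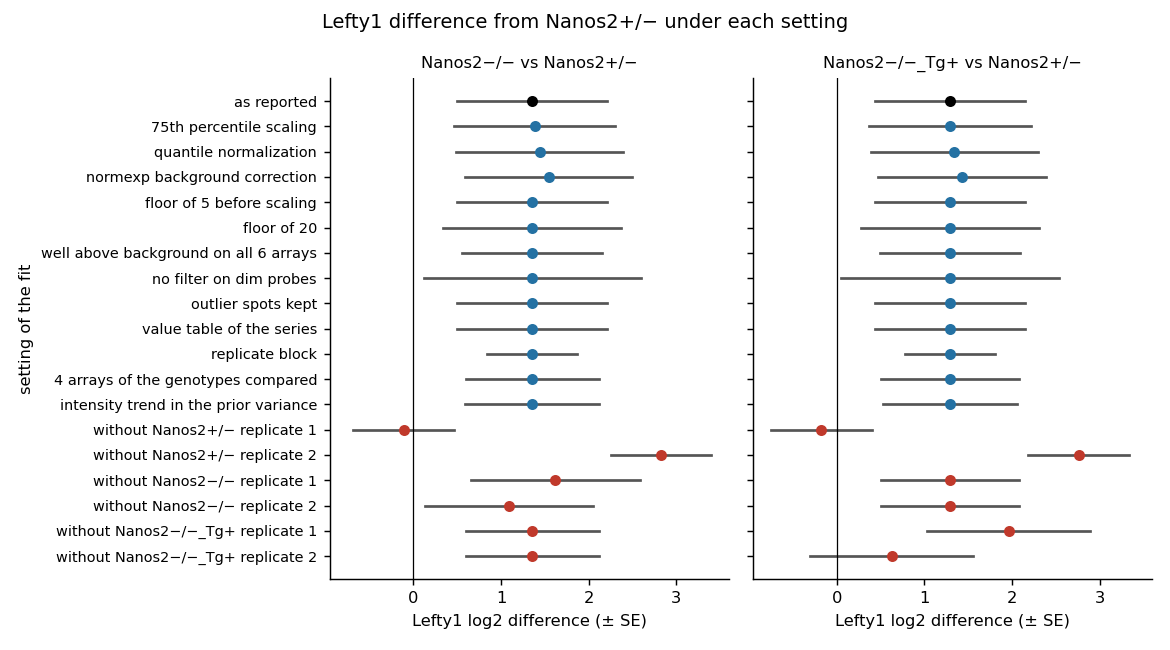
Log2 difference of Lefty1 from Nanos2+/- with its SE (x axis) in each setting of the fit (y axis), for Nanos2-/- on the left and Nanos2-/-_Tg+ on the right, with the reported fit in black, other settings in blue and fits without 1 array in red. Only the fits that leave out a Nanos2+/- array reach -0.11 and -0.17 or 2.82 and 2.76.

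Lefty2, the paralog of Lefty1, lay in a far narrower range. Its log2 signals were 9.71 and 9.72 in Nanos2+/-, 10.09 and 9.97 in Nanos2-/-, and 9.45 and 9.82 in Nanos2-/-_Tg+. The Nanos2-/- arrays were the 2 highest and did not overlap with either other genotype. The difference of Nanos2-/- from Nanos2+/- was 0.32 (SE 0.20, limma adjusted p = 0.718), and that of Nanos2-/-_Tg+ from Nanos2-/- was -0.39 (95% CI -0.86 to 0.07, adjusted p = 1). The methods' t-test put the first of these past its threshold before Benjamini-Hochberg adjustment and not after it, at a difference under 2-fold. Nanos2-/-_Tg+ and Nanos2+/- differed by -0.08 (adjusted p = 0.929). Lefty1 and Lefty2 lie near each other on chromosome 1, with 3 annotated genes between them in RefSeq, 1 of them protein coding. Whether each probe tells the 2 transcripts apart was not tested.

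Among the receptors, Acvr1b encodes the type I receptor shared by Nodal and activins. Its log2 signals were 3.97 and 4.10 in Nanos2+/-, 3.96 and 3.21 in Nanos2-/-, and 4.51 and 3.89 in Nanos2-/-_Tg+. Replicate 2 of Nanos2-/- and replicate 2 of Nanos2-/-_Tg+ were not well above background, so the probe was measured on 4 of 6 arrays. The fitted difference, which includes these 2 undetected signals and has no firm size, was -0.45 (SE 0.31, limma adjusted p = 0.743) for Nanos2-/- against Nanos2+/- and 0.62 (adjusted p = 1) for Nanos2-/-_Tg+ against Nanos2-/-.

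Acvr2b encodes a type II receptor of the same ligands. Its log2 signals were 10.13 and 11.14 in Nanos2+/-, 10.55 and 10.70 in Nanos2-/-, and 10.53 and 10.60 in Nanos2-/-_Tg+. The 2 Nanos2+/- arrays were the lowest and the highest of all 6, and the other 4 lay between them. The genotype means differed by -0.01 in Nanos2-/- and -0.07 in Nanos2-/-_Tg+ from Nanos2+/- (SE 0.32, limma adjusted p = 0.998 and 0.964). The sign of the first difference turned under other scalings, to 0.01 with the 75th percentile and 0.04 after quantile normalization.

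Smad2 and Smad3 encode the receptor-regulated SMADs, the pathway's signal transducers. The log2 signals of Smad2 were 11.11 and 11.33 in Nanos2+/-, 11.34 and 11.49 in Nanos2-/-, and 11.53 and 11.50 in Nanos2-/-_Tg+. No 2 genotypes overlapped, and the order was Nanos2+/-, Nanos2-/-, Nanos2-/-_Tg+. Its neighbours in that order were 0.20 and 0.10 apart (SE 0.19, limma adjusted p = 0.822 and 1), and Nanos2-/-_Tg+ exceeded Nanos2+/- by 0.29 (95% CI -0.14 to 0.72, adjusted p = 0.614). The 95% confidence interval of each of these differences included 0.

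The brighter Smad3 probe had log2 signals of 11.01 and 11.27 in Nanos2+/-, 11.23 and 11.30 in Nanos2-/-, and 11.21 and 11.46 in Nanos2-/-_Tg+. The groups overlapped in every comparison, with differences of 0.12, 0.19 and 0.07 (SE 0.20) in the order Nanos2-/- against Nanos2+/-, Nanos2-/-_Tg+ against Nanos2+/- and Nanos2-/-_Tg+ against Nanos2-/-. The other Smad3 probe read 5.45 and 6.19, 6.13 and 6.28, and 5.81 and 6.19 in the same 3 genotypes. It differed from the first probe in direction between Nanos2-/-_Tg+ and Nanos2-/-, at -0.20 (SE 0.28, limma adjusted p = 1).

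Foxh1, which encodes the forkhead partner of the SMADs, had log2 signals of 10.79 and 10.89 in Nanos2+/-, 11.00 and 10.93 in Nanos2-/-, and 10.99 and 10.58 in Nanos2-/-_Tg+. The Nanos2-/- arrays lay above both Nanos2+/- arrays by a small margin, and the 2 Nanos2-/-_Tg+ arrays lay furthest apart. The differences were 0.12, -0.06 and -0.18 (SE 0.21, limma adjusted p = 0.913, 0.948 and 1) in the same order of comparisons.

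Groups of 2 arrays that do not overlap were frequent on these arrays. In Nanos2-/- against Nanos2+/- they were found for 4 of the 9 probes (Lefty2, Smad2 and Foxh1 higher, Acvr1b lower), beside 36% of all tested probes. For Acvr1b this rested on 3.96 against 3.97, with the other Nanos2-/- array not well above background. Acvr1b was also tested only because both Nanos2+/- arrays were well above background, so the filter itself leaned toward this direction. There was 1 of 9 (Smad2 higher) in Nanos2-/-_Tg+ against Nanos2+/-, beside 38.9%. There were 2 of 9 (Smad2 higher, Lefty2 lower) in Nanos2-/-_Tg+ against Nanos2-/-, beside 31.4%. The members were near or under the background in each case. For a single probe, an exact two-sided permutation test of 2 arrays against 2 cannot give a p under 0.333.

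The intervals reflect only the spread between replicate arrays, pooled over the 3 genotypes and moderated by limma toward that of all tested probes. In comparisons with Nanos2+/- they do not bound a genotype difference apart from a slide difference. The whole 95% confidence interval lay within a 2-fold change either way for 6 of the 9 probes in Nanos2-/- against Nanos2+/-, for 8 of 9 in Nanos2-/-_Tg+ against Nanos2+/- and for 7 of 9 in Nanos2-/-_Tg+ against Nanos2-/-. Lefty1 was outside these counts in all 3 comparisons. Acvr1b was outside them in both comparisons that involve Nanos2-/-, and the dimmer Smad3 probe in the first. In Nanos2-/-_Tg+ against Nanos2+/- Acvr1b was counted, though replicate 2 of Nanos2-/-_Tg+ was not well above background and the difference has no firm size.

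**Figure D3:**
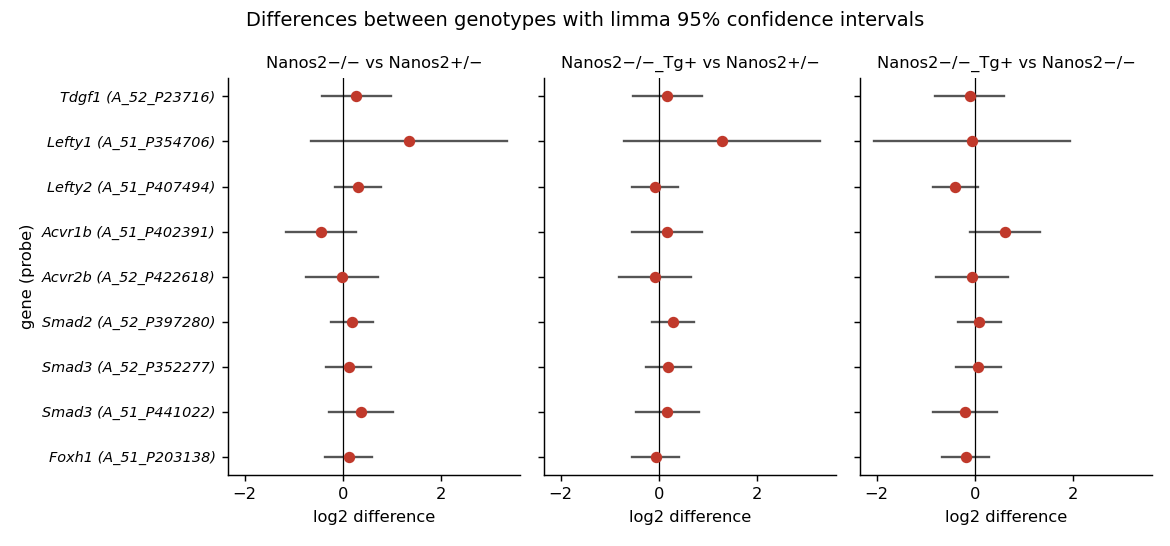
Log2 difference between 2 genotypes (x axis) for each of the 9 probes (y axis), with limma's 95% confidence interval as a line, in 1 panel per comparison. Every interval includes 0, and that of Lefty1 is the widest, from -0.64 to 3.35 in Nanos2-/- against Nanos2+/-.

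The spread of Lefty1 lay between replicates more than between genotypes. Replicate 2 exceeded replicate 1 by 2.93 (7.64-fold) in Nanos2+/-, by 0.53 (1.44-fold) in Nanos2-/- and by 1.33 (2.52-fold) in Nanos2-/-_Tg+. In Nanos2+/-, 13 of the tested probes were further apart than Lefty1, whereas the median distance between the 2 Nanos2+/- arrays was 0.33. In Nanos2-/- 2961 probes were further apart than Lefty1 and in Nanos2-/-_Tg+ 354.

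The replicate 2 array was the higher one in all 3 genotypes for 4 of the 9 probes (Lefty1, Acvr2b and both Smad3 probes), beside 37.7% of all tested probes. Over all tested probes, the median of replicate 2 minus replicate 1 was 0.23 in Nanos2+/-, 0.11 in Nanos2-/- and 0.05 in Nanos2-/-_Tg+. The median probe thus also read lower on replicate 1, by less than Lefty1 in each genotype. The source of the Lefty1 gap was not tested. What arrays with the same replicate number have in common is not stated in the labels. In a fit with genotype and replicate number, chosen after seeing the data, the replicate term of Lefty1 was 1.60 (SE 0.42, limma adjusted p = 0.182), with 0 probes called on the array and 272 at a p under 0.05 before adjustment with at least a 2-fold difference. The other 8 probes of the members had replicate terms between -0.42 and 0.43.

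The genes whose pattern over the 6 arrays was most like that of Lefty1 were sought among 12452 genes well above background on every array. Among the nearest were Pigk and Ktn1, both with r = 0.99, and 597 genes had r above 0.9. These correlations rest on 6 arrays, and the genes share the scaling of each array. Without the low Nanos2+/- array, r was 0.944 for Pigk and 0.997 for Ktn1. Lefty2 had r = 0.33 with Lefty1 and stood at rank 6574.

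Gdf3 and Nanog, both from the lists of pathway genes, were chosen for display after their values were seen. Gdf3, which encodes a ligand that uses the same receptors and CRIPTO, read 6.52 and 8.72 in Nanos2+/-, 8.20 and 8.73 in Nanos2-/-, and 7.93 and 8.67 in Nanos2-/-_Tg+. Nanog, a pluripotency gene of fetal germ cells and a reported SMAD2/3 target, read 7.43 and 9.05, 8.74 and 9.25, and 7.94 and 8.83 in the same order. In both genes replicate 1 of Nanos2+/- was again the lowest array, and replicate 1 was the lower one in each genotype.

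The germ cell gene Pou5f1 also had its lower array at replicate 1, but with about the same distance in each genotype. It read 10.62 and 12.43 in Nanos2+/-, 10.53 and 12.39 in Nanos2-/-, and 10.78 and 12.61 in Nanos2-/-_Tg+. Dppa3 read 14.86 and 15.95 in Nanos2+/- and Dazl 12.80 and 13.74, lowest on the same array as Lefty1. Mael, with 14.75 and 14.45, and Sall4, with 10.47 and 10.18, were higher on that array than on the other Nanos2+/- array. Ddx4, the germ cell RNA helicase gene, moved little, with 14.17 and 14.29, 13.97 and 14.22, and 14.21 and 14.34. Dnd1, with 13.54 and 13.76, and Kit, with 8.81 and 8.97, were also lower on replicate 1 of Nanos2+/-. Among the tested germ cell markers, only Mael and Sall4 were higher on that array. Thus germ cell genes differed in the size and direction of this gap, and its source was not tested.

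**Figure D4:**
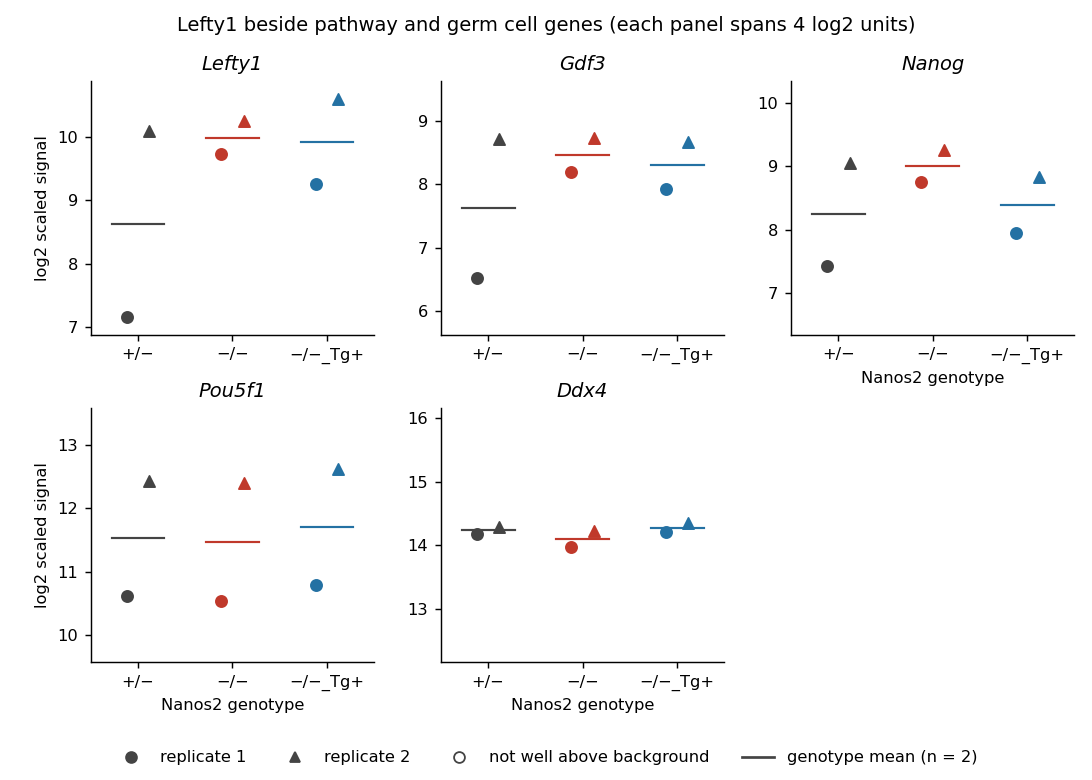
Log2 scaled signal (y axis, each panel spanning 4 log2 units) of Lefty1, Gdf3, Nanog, Pou5f1 and Ddx4 in the 3 Nanos2 genotypes (x axis), with circles for replicate 1, triangles for replicate 2 and lines for the mean of the 2 arrays. Replicate 1 of Nanos2+/- is the lowest array for Lefty1 (7.17), Gdf3 (6.52) and Nanog (7.43), while Ddx4 stays between 13.97 and 14.34.

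Summed signals of marker lists moved between replicates as well. The 8 germ cell markers summed to 98418 and 140419 in Nanos2+/-, 99448 and 125829 in Nanos2-/-, and 111331 and 134185 in Nanos2-/-_Tg+, lower in replicate 1 each time. Of these 8, 5 were lower there in all 3 genotypes, beside 37.7% of all tested probes. Dppa3 alone read 29822 and 63225 in Nanos2+/-. The 10 Sertoli cell markers summed to 120053 and 178626, 128365 and 175744, and 147300 and 166275. Of these 10, 3 were lower in replicate 1 throughout, again beside 37.7% of all tested probes. Cst9 alone read 60053 and 101384 in Nanos2+/-, so single bright genes weigh heavily in such sums. The 7 Leydig cell markers were not lower in replicate 1 each time, at 141184 and 161611, 156877 and 132673, and 164999 and 138766. The part of these shifts in the Lefty1 values was not tested.

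For the other 2 members in the likeness search, the closest genes were no genes of the pathway lists. Those nearest to Tdgf1 were Serpina6 (r = 0.97), Car1 (0.96) and Pthlh (0.96), and those nearest to Lefty2 were Xntrpc (0.99), Spon1 (0.93) and P2rx3 (0.93), over the 6 arrays. Of all 12452 genes, 10 had r above 0.9 with Tdgf1 and 5 with Lefty2.

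A further 45 genes of the pathway were considered in 5 lists, of which 43 had a probe and 40 were tested. In each of the 3 comparisons 0 of the 40 were called. At a limma p under 0.05 before adjustment there were 1, 2 and 0, in the order Nanos2-/- against Nanos2+/-, Nanos2-/-_Tg+ against Nanos2+/- and Nanos2-/-_Tg+ against Nanos2-/-. The share of all tested probes under that threshold was not counted, so these counts are not read as a result. The median differences of the 40 genes were -0.01, 0.09 and 0.02, beside -0.04, -0.01 and 0.03 over all tested probes. By list, the 6 tested activin, inhibin and GDF ligands, 9 modulators and proteases, 5 other receptors, 12 other SMADs, partners and repressors and 8 reported targets each had 0 called.

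Eomes, a T-box gene reported as a target of the pathway, was the only one of these 40 whose arrays did not overlap and whose fitted difference reached 2-fold, though against signals not well above background. Its log2 signals were 3.49 and 4.12 in Nanos2+/-, not well above background on either array, 4.88 and 4.76 in Nanos2-/-, and 3.15 and 4.62 in Nanos2-/-_Tg+, where 1 of 2 arrays was well above background. A 2-fold difference is therefore not established. Eomes was also tested only because both Nanos2-/- arrays were well above background, so the filter itself leaned toward a higher signal in Nanos2-/-. The mean of the Nanos2-/- arrays was 1.92-fold over the higher of the lowest detected signal and the probe's own on each Nanos2+/- array. That is no firm lower limit, since this probe was not well above background even at 4.12. The fitted difference was 1.01 (limma adjusted p = 0.569). It did not pass the test, and its sign turned to -0.36 with normexp background correction.

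Some other genes of the activin side, named after their values were seen, were well above background on all 6 arrays and were not called. Inhba, the gene of the activin A subunit, had log2 signals of 12.86 and 12.67 in Nanos2+/-, 12.61 and 12.36 in Nanos2-/-, and 12.55 and 12.16 in Nanos2-/-_Tg+. Inhbb, the gene of the activin B subunit, lay between 13.25 and 13.64 on all 6 arrays. Smad4, the common partner SMAD, lay between 13.39 and 13.81, and Acvr2a, the other type II receptor gene, between 7.19 and 7.49.

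Fst and Smurf2, also chosen after their values were seen, were the pathway genes with a limma p under 0.05 before adjustment. Fst, which encodes the activin-binding protein follistatin, read 6.60 and 6.48 in Nanos2+/-, 6.0 and 5.93 in Nanos2-/-, and 5.85 and 5.33 in Nanos2-/-_Tg+. No 2 genotypes overlapped. The difference from Nanos2+/- was -0.58 (SE 0.22, limma adjusted p = 0.499) in Nanos2-/- and -0.95 (SE 0.22, adjusted p = 0.178) in Nanos2-/-_Tg+. Smurf2, which encodes a ubiquitin ligase of SMADs and receptors, differed by -0.59 (SE 0.18, adjusted p = 0.268) in Nanos2-/-_Tg+ against Nanos2+/-. None of these passed after adjustment, and slide and genotype cannot be told apart in them.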

How the data were processed

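Total RNA (0.20 µg per array) of E14.5 male gonads had been labelled with Cy3 and hybridized to Agilent whole mouse genome arrays. The deposited scanner files hold the intensity of 45018 spots per array after background subtraction by the authors' software, Agilent Feature Extraction 9.5 per the submitters' processing notes. The deposited value table holds the same intensity, within 0.497%, and served as an alternative. In the authors' methods, 5 was the lowest value allowed, every chip was normalized to its 50th percentile and every gene to its median. The last step does not alter differences between genotypes and was not repeated.

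Here the 1639 control spots and outlier spots (54 to 82 per array) were left out. Each array was scaled to a common 50th percentile (factors 0.878 to 1.28), floored at 5, put on the log2 scale and averaged per probe. Tested were the 26712 probes that both arrays of some genotype showed well above background, of which 26711 had a value in all comparisons. limma 3.58.1 in R 4.3.3 (lmFit and eBayes, all 6 arrays, genotype only) gave p-values, adjusted by Benjamini-Hochberg over all tested probes, and confidence intervals. Simulated arrays with known changes were used to check the fit. The number of arrays limits the precision. Figures were drawn with matplotlib 3.10.9.

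Probes were named by RefSeq accession, without versions, from a table of assembly GRCm38.p6, which gave 23374 probes a gene. No coordinates are given, since the array files name another build. A gene with 2 probes was led by the brighter one. The members and the gene lists were chosen with earlier results of these data known. All probes of the members were named. Of each other pathway list, those called, or else those with no overlap and at least a 2-fold difference, were named, at most 3 per list and comparison. For Tdgf1, Lefty1 and Lefty2 the 3 genes with the highest Pearson r over the 6 arrays were named as well, except 1 gene that is not reported here. Alternatives covered the scaling, background correction, floor, filter, outlier spots, value table, replicate block, arrays in the fit, variance trend, the methods' t-test and each array left out in turn. limma p-values set a difference against the spread between the 2 biological replicates per genotype. That spread was pooled over the 3 genotypes and moderated toward that of all tested probes.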

Additional observations from a re-analysis of the deposited data

How the results depend on the processing

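The count of members called stayed at 0 in each comparison under every alternative run, while calls over all probes, 18, 28 and 5 (in the order Nanos2-/- against Nanos2+/-, Nanos2-/-_Tg+ against Nanos2+/-, Nanos2-/-_Tg+ against Nanos2-/-), moved widely. They were 5, 10 and 4 with the 75th percentile, 5, 9 and 4 after quantile normalization, 0 in all 3 with normexp, with a floor of 20 or with the methods' t-test after Benjamini-Hochberg adjustment (153, 234 and 40 before it), 1, 5 and 1 for probes well above background on all 6 arrays, 2, 4 and 0 with no filter, 38, 85 and 1 with 4 arrays, and 5, 18 and 3 with a variance trend. Leaving out 1 array gave 13 to 47, 21 to 85 and 1 to 29. Of 616 recomputed differences 582 kept their sign, 33 turned, 13 of them without leaving out an array, and 0 were called. Many of the 616 could not change. The filters, the 4-array fit, the variance trend, the replicate block and the methods' t-test keep the same difference of means. Leaving out an array of the genotype not compared does so too. The 582 is therefore no measure of stability.

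The normexp setting changed the input signal and added an offset of 50 as well as correcting the background. Normexp moved the median of all probes to 0.56 and 0.52 in the comparisons with Nanos2+/-, and differences there are to be read against it. In Nanos2-/- against Nanos2+/- it turned Tdgf1 to -0.28, Acvr2b to 0.81 and Eomes to -0.36. In Nanos2-/-_Tg+ against Nanos2+/- it turned Tdgf1 to -0.40, Lefty2 to 0.66, Acvr1b to -0.40, Acvr2b to 0.72, the dimmer Smad3 probe to -0.094, Foxh1 to 0.73 and Smurf2 to 0.049. Within the slide it turned the brighter Smad3 probe to -0.0012. Acvr2b in Nanos2-/- against Nanos2+/- also turned with the 75th percentile (0.014) and quantile normalization (0.038), and Acvr1b became 0 with a floor of 20. The cause of these turns was not tested.

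Leaving out an array also moved the median over all tested probes. Without replicate 1 of Nanos2+/- it was -0.16 in Nanos2-/- against Nanos2+/- and -0.12 in Nanos2-/-_Tg+ against Nanos2+/-. Differences from such fits are to be read against it. With 1 array left out, signs turned within these ranges. In Nanos2-/- against Nanos2+/- they were -0.16 to 0.72 for Tdgf1, -0.11 to 2.82 for Lefty1, -0.52 to 0.49 for Acvr2b and -0.0039 to 0.25 for the brighter Smad3 probe. In Nanos2-/-_Tg+ against Nanos2+/- they were -0.0029 to 0.36 for Tdgf1, -0.17 to 2.76 for Lefty1, -0.26 to 0.11 for Lefty2, -0.14 to 0.48 for Acvr1b, -0.57 to 0.44 for Acvr2b, -0.19 to 0.55 for the dimmer Smad3 probe and -0.26 to 0.15 for Foxh1. In Nanos2-/-_Tg+ against Nanos2-/- they were -0.54 to 0.34 for Tdgf1, -0.73 to 0.60 for Lefty1, -0.13 to 0.022 for Acvr2b, -0.057 to 0.20 for the brighter Smad3 probe and -0.39 to 0.024 for Foxh1.

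With the replicate block, 0 members were called, the Lefty1 differences remained 1.35, 1.29 and -0.06 with an SE of 0.51 (limma adjusted p = 0.302, 0.260 and 1), and 18, 145 and 4 of all probes were called. Replicate differences of 2 genotypes correlated over all probes at r = 0.26 to 0.36, but only 2 numbers exist and the labels tie them to nothing shared. A fit with slide as a block could not be made for Nanos2+/-, and within the slide of the other genotypes it is the fit of 4 arrays. Signals near 3.47 to 3.84, the lowest well above background, limit Acvr1b, Tdgf1 and Eomes.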
